A study of Mus musculus with 9 samples.

Results

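The mesenchyme of E1C5Δ/Δ mouse forelimb buds was compared with that of wild-type (Wt) forelimb buds by single-cell RNA sequencing. E1C5Δ/Δ embryos are homozygous for EC1CRM5, a Grem1 allele that lacks a group of the gene's limb bud enhancers (cis-regulatory modules, CRMs). The study uses it as a tetradactyl model, in which the limb loses an anterior digit. All embryos were on a Swiss Albino background and were collected at E10.75 (37 to 39 somites), before the digits form. Each library came from the pair of forelimb buds, with 3 biological replicates for Wt and 3 for E1C5Δ/Δ. The series also holds 3 libraries of a second enhancer allele, EC1CRM8Δ/Δ (E1C8Δ/Δ), which are used here only where E1C5Δ/Δ is set beside them. Mesenchymal cells were chosen by these limits: more than 2500 genes, fewer than 200000 UMIs (unique molecular identifiers, 1 per captured transcript) and less than 10% mitochondrial UMIs, with at least 3 UMIs of Prrx1, a transcription factor of limb mesenchyme, and 0 UMIs of Lbx1 (muscle progenitors), Epcam (epithelium), Cdh5 (endothelium) and Tyrobp (myeloid cells). Of 86686 barcodes in the 6 libraries, 32835 passed the limits on genes, UMIs and mitochondrial share, and 21636 of these were chosen, 10373 from Wt and 11263 from E1C5Δ/Δ. The whole series holds 133086 barcodes, of which the same rule chose 34671.

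GREM1 is secreted and binds bone morphogenetic proteins (BMPs), which keeps them from their receptors. In the limb bud it links Sonic hedgehog (SHH), made by posterior mesenchyme, to fibroblast growth factors (FGFs) made by the apical ectodermal ridge, the epithelial rim that keeps distal mesenchyme growing. Distal mesenchymal progenitors that express 5′ Hox genes give rise to the autopod, while Sox9 marks the core cells that condense into cartilage.

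The chosen cells carried 61.7%, 64.5% and 61.8% of the filtered cells in the Wt libraries and 61.9%, 71.2% and 71.1% in the E1C5Δ/Δ libraries. The groups overlapped (62.7% ± 1.6 against 68.1% ± 5.34, SD, n = 3 each, exact permutation test, two-sided, p = 0.2). Summed UMIs of the chosen cells ran from 31253694 (Wt replicate 3, with 591 cells) to 290105146 (E1C5Δ/Δ replicate 3, with 6815 cells), and the median UMIs per cell were 37594 ± 8848 in Wt and 36397 ± 7079 in E1C5Δ/Δ. No pair of the 6 libraries shared more than 8 cell barcodes among the chosen cells. By Xist and Y-linked genes, the 3 Wt libraries and E1C5Δ/Δ replicate 2 were read as male and E1C5Δ/Δ replicates 1 and 3 as female, so genes on the sex chromosomes were left out. Wt replicate 1 also held 89 chosen cells, 2.17% of its total, with at least 3 Xist UMIs and no Y-linked UMI. All 12 mesenchyme markers were measured, and their sum was 2264 to 2603 CPM (UMIs after scaling for library size) in Wt and 1965 to 2295 in E1C5Δ/Δ. Prrx1, which chose the cells, gave 562 to 729 CPM of this sum in the 6 libraries. Hemoglobin and other erythroid transcripts summed to 2743 to 8991 CPM in Wt and 1059 to 4227 in E1C5Δ/Δ.

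Between the summed libraries, 80 of 15924 autosomal genes differed (edgeR quasi-likelihood test, Benjamini-Hochberg adjusted p under 0.05), 64 lower and 16 higher in E1C5Δ/Δ. That is 0.502% of the genes tested, 0.402% lower and 0.1% higher. Genes that mark distal progenitors (Tfap2b, Jag1, Hoxd13) and cartilage (Cnmd, Matn4) were among those that fell, as were Osr2, Fgf9, Foxc1, Enpp2, Scg5 and Fmn1, the last 2 being the genes on either side of Grem1. Among the 16 higher genes, only 4 averaged 5 CPM or more (Metrn, Pop4, Zfp61 and Hoxb7), against 27 of the 64 lower genes. The median log2 difference over all genes tested was 0.0039. In a sum over cells, fewer cells of a type and less RNA per cell cannot be told apart.

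These counts moved when single libraries were left out and when embryo sex was added to a fit. Leaving out 1 library at a time gave 4 to 26 higher and 13 to 100 lower genes, and 14 of the 80 genes were called whichever library was omitted. Adding embryo sex to a fit of all 9 libraries gave 2 higher and 11 lower genes, and 11 of the 80 genes were among them. In that fit E1C8Δ/Δ replicates 1 and 2 were read as female and replicate 3 as male. No Wt library was read as female. Sex and genotype are thus partly confounded, and their parts in this drop cannot be told apart. The fit of all 9 libraries without sex shared 78 of the 80. In the male libraries alone, E1C5Δ/Δ is represented by replicate 2 only, so the count of genes from that fit is not weighed here. Tfap2b, Enpp2, Mmrn2 and Gm3636 were called in all 19 alternative analyses. All 80 genes had 3 E1C5Δ/Δ libraries on one side of the 3 Wt libraries, as did 17.1% of all genes tested. Among the called genes named here, Tfap2b, Enpp2, Pmaip1, Foxc1, Fgf9, Mnx1, Mmrn2, Gm3636 and Gm3468 kept their call without any 1 library. This concerns omitted libraries only, and Pmaip1, Foxc1, Fgf9, Mnx1 and Gm3468 were not called in every alternative. H2-D1 lost it without Wt replicate 3, Mab21l2 without Wt replicate 3 or E1C5Δ/Δ replicate 1, and Osr2 without Wt replicate 2, Wt replicate 3 or E1C5Δ/Δ replicate 2. Jag1 lost it in 3 omissions, given with its values. Fmn1, Metrn and Zfp61 lost it whichever library was omitted. Notch1 and Scg5 kept it without Wt replicate 1 or E1C5Δ/Δ replicate 2, Tbx4 without Wt replicate 1 or E1C5Δ/Δ replicate 3, Cnmd without Wt replicate 1 or 3 and Sorbs2 without Wt replicate 1 or 2. The others kept it in 1 omission only, which was Wt replicate 1 for Hoxd13, Evx1, Evx2, Fgf18, Cxcl14, Matn4 and Creb5, Wt replicate 2 for Hoxb7, and E1C5Δ/Δ replicate 3 for Hhip and Pop4.

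**Figure D1:**
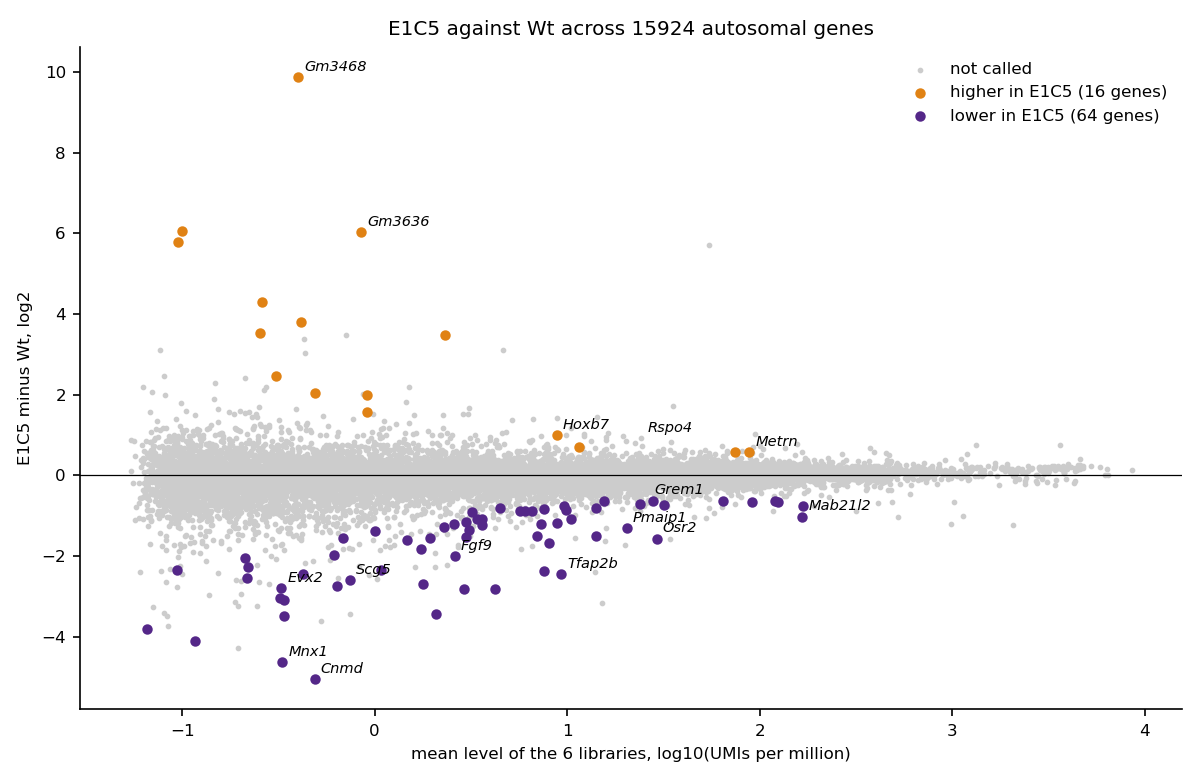
Difference of E1C5Δ/Δ from Wt on the log2 scale (vertical) against the mean level of the 6 libraries (log10 CPM, horizontal) for 15924 autosomal genes. The 64 lower genes (purple) spread over the whole range of levels, while 12 of the 16 higher genes (orange) lie at low levels; the height of Gm3468, at 0 in every Wt library, depends on the fit's prior count.

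Grem1 itself (ENSMUSG00000074934, GRCm38 chr2:113746164-113758646, minus strand) stood at 40.4, 29.1 and 26.8 CPM in the Wt libraries and at 19.6, 17.6 and 25.3 in the E1C5Δ/Δ libraries. Every E1C5Δ/Δ library was below every Wt library, with E1C5Δ/Δ replicate 3 close to the lowest Wt value. The difference was -0.62 ± 0.18 (log2 ± SE) and did not pass the test over all genes (edgeR, adjusted p = 0.218). It passed in 1 of the 19 alternatives.

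Its direct neighbours did pass. Scg5 (chr2:113776362-113829121), which encodes a neuroendocrine chaperone and lies 17.7 kb from Grem1, had 0.837, 1.33 and 1.66 CPM in Wt and 0.125, 0.317 and 0.204 in E1C5Δ/Δ. It fell by 2.60 ± 0.38 on the log2 scale (edgeR, adjusted p = 0.0311). Fmn1 (chr2:113327736-113716767), which encodes the actin regulator formin 1 and lies 29.4 kb from Grem1 on the other side, had 4.25, 3.74 and 2.85 in Wt against 1.32, 1.52 and 1.89. It fell by 1.20 ± 0.21 (edgeR, adjusted p = 0.0497), just inside the threshold, a call lost without any one of the 6 libraries. Both genes separated the groups without overlap at low levels. Of the 13 listed genes of this stretch of chromosome 2 that could be tested, these 2 fell, against 0.402% of all genes tested, and none rose. All E1C5Δ/Δ libraries were below Wt for 3 of the 13 (23.1%, against 9.07% of all genes tested), and the list's median was 0.05. Nop10, 1483 kb away, was the only one with all E1C5Δ/Δ libraries above Wt (0.53 ± 0.12, edgeR, adjusted p = 0.117). That is 7.69% of the list, against 8.05% of all genes tested.

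The 250 bases before the RefSeq start of Grem1 and of Hoxd13 are given because the first gene lost some of its limb bud enhancers and the second is a distal progenitor gene that fell. Each is from RefSeq, build GRCm38.p6, 5′ to 3′ on the gene's strand. Capitals mark matches to GGCGCC, a GC-rich SMAD element, or GCCNNNGGC, a TFAP2 site, searched on both strands.
Grem1 (chr2:113758649-113758898, minus strand): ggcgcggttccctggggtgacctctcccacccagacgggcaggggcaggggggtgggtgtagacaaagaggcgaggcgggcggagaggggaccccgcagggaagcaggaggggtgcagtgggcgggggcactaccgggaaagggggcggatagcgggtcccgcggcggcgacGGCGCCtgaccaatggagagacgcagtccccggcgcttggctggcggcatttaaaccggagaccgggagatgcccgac
Hoxd13 (chr2:74667975-74668224, plus strand): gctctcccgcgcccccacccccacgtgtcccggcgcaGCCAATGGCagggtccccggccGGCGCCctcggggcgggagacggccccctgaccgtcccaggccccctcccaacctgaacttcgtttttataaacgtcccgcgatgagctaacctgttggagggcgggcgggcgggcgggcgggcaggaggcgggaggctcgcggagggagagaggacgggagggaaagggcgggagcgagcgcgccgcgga
GGCGCC was found in 16.6% of 11567 promoters of tested genes and in 7 of the 62 called genes with a promoter in the table. GCCNNNGGC was found in 20.3% and in 14 of the 62, and CCAATAAA, a HOX13 site, in 0.813% and in none. The 250 bases before Tfap2b, Jag1 and Fgf9, which also fell, were searched alike, held no match and are not printed. A match is a description of these letters and not evidence of binding.

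The distal progenitor genes Tfap2b, Jag1 and Hoxd13 fell in E1C5Δ/Δ. Of 11 listed genes tested, these 3 fell, against 0.402% of all genes tested, and none rose. All E1C5Δ/Δ libraries were below Wt for 7 of the 11 (63.6%, against 9.07% of all genes tested). The list's median was -0.48. These genes were picked by the study on these samples, so their direction is not independent evidence. Tfap2b, a transcription factor gene of the study's distal progenitors, had 12.5, 16.8 and 18 CPM in Wt and 2.30, 2.45 and 3.79 in E1C5Δ/Δ. All 3 E1C5Δ/Δ values were far below the lowest Wt value (log2 difference -2.45 ± 0.22, edgeR, adjusted p = 0.00224).

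Jag1, a ligand of Notch receptors, had 9.80, 8.78 and 12.1 CPM in Wt and 3.93, 4.02 and 5.17 in E1C5Δ/Δ. It fell by 1.21 ± 0.17 on the log2 scale (edgeR, adjusted p = 0.0247), a call lost without Wt replicate 3, E1C5Δ/Δ replicate 1 or E1C5Δ/Δ replicate 2. Hoxd13, the most 5′ gene of the HoxD cluster and a determinant of digits, had 37.8, 36.0 and 45.6 in Wt against 22.9, 22.1 and 26.7, and fell by 0.73 ± 0.12 (edgeR, adjusted p = 0.0438). Hoxa13, its counterpart in the HoxA cluster, had 9.91, 8.20 and 12.3 in Wt and 1.94, 5.04 and 2.20 in E1C5Δ/Δ. The groups did not overlap, but E1C5Δ/Δ replicate 2 lay well above the other 2 and the difference of -1.75 ± 0.34 did not pass (edgeR, adjusted p = 0.0658). Hoxd12 (-0.88, edgeR, adjusted p = 0.128), Hey1 (-0.48, adjusted p = 0.229) and Hand2 (-0.26, adjusted p = 0.340) were below Wt in all E1C5Δ/Δ libraries without passing.

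**Figure D2:**
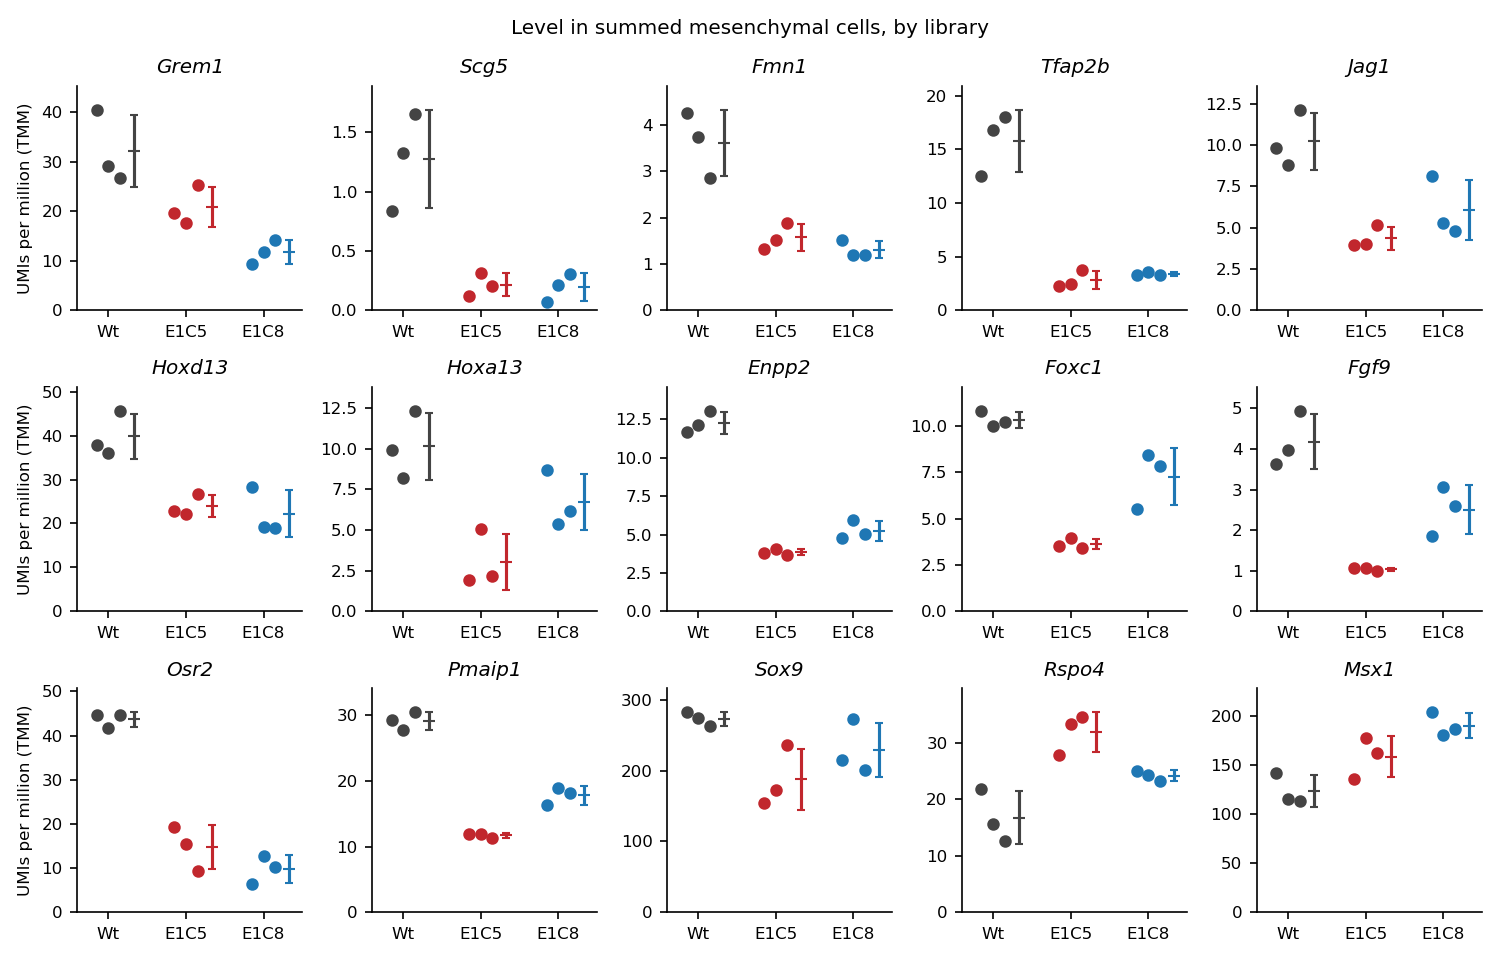
Level of 15 genes in CPM (vertical, from 0) in the summed mesenchymal cells of each Wt, E1C5Δ/Δ and E1C8Δ/Δ library (points), with the group mean and SD beside them (n = 3 each). The E1C5Δ/Δ points of Tfap2b lie between 2.30 and 3.79, below the Wt points at 12.5 to 18, whereas those of Msx1 overlap Wt.

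Per-cell detection was compared after each cell was thinned to 10000 UMIs, which left out 2.14% to 7.78% of the chosen cells per library. Grem1 was detected in 17.6%, 14.9% and 11% of Wt cells and in 11.7%, 10.3% and 16.3% of E1C5Δ/Δ cells. These shares overlapped (14.5% ± 3.34 against 12.8% ± 3.14, exact permutation p = 0.6). Without thinning, the difference in share changed sign to 2.33 percentage points higher in E1C5Δ/Δ. Cells with Grem1 carried 2.06, 1.79 and 2.10 Grem1 UMIs each in Wt and 1.38, 1.42 and 1.45 in E1C5Δ/Δ, which did not overlap (exact p = 0.1, the smallest that 3 against 3 can give).

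Tfap2b showed both fewer positive cells, 6.12% ± 0.711 in Wt against 2.02% ± 0.548, and fewer UMIs in each, 1.93 ± 0.0931 against 1.32 ± 0.0229. Neither measure overlapped (exact p = 0.1 for both). Hoxa13 was detected in 5.75% ± 0.676 against 2.21% ± 0.725 of cells, Jag1 in 6.29% ± 0.624 against 3.60% ± 0.837 and Hoxd13 in 18.2% ± 1.45 against 14% ± 1.72, also without overlap (exact p = 0.1, adjusted over 30 genes p = 0.3). With all UMIs of a cell, the Hoxd13 shares overlapped (36.0% ± 4.80 against 31.5% ± 3.12, exact p = 0.3), while those of Tfap2b (11.7% ± 1.92 against 5.06% ± 1.20), Hoxa13 (12.6% ± 1.11 against 5.76% ± 1.69) and Jag1 (18.3% ± 0.935 against 13.4% ± 2.58) did not. Background was read in myeloid cells, which should lack these genes, taken as filtered cells with at least 3 UMIs of Tyrobp and thinned alike. Of 104 such Wt and 85 such E1C5Δ/Δ cells, Grem1 was detected in 3.85% and 3.53%, Tfap2b in 0.962% and 1.18%, Hoxa13 in 1.92% and 0%, Jag1 in 0.962% and 0% and Hoxd13 in 4.81% and 0%. With so few cells these shares are coarse: 0 of 85 has a Wilson 95% upper bound of 4.32%, and the E1C5Δ/Δ interval for Tfap2b, 0.208% to 6.37%, includes its share in E1C5Δ/Δ mesenchyme. These intervals cover counting error only. The median depth of the myeloid cells was 45573 to 80843 UMIs in Wt libraries and 46930 to 65681 in E1C5Δ/Δ libraries.

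Grem1 and Jag1 separated the groups in Hoxd13-positive cells and overlapped in cells without a Hoxd13 UMI. These ranges of cells were set after the results above were seen, so their levels are given as descriptions with no test. In cells with a Hoxd13 UMI, Grem1 stood at 64.3, 38.2 and 35.5 CPM in Wt and 23.1, 17.6 and 28.4 in E1C5Δ/Δ, while in cells without one the groups overlapped at 24.2, 18.4 and 16.8 against 13.7, 14.7 and 22.3. Jag1 went from a mean of 18.3 ± 3.57 to 5.06 ± 1.08 in Hoxd13-positive cells and from 3.13 ± 0.971 to 3.41 ± 0.705 in the others. Hey1, a target of Notch signalling, showed the same split, 24.9 ± 4.51 to 15.4 ± 2.51 against 6.18 ± 1.56 to 6.39 ± 1.18. Hoxd13-positive cells were 36.0% ± 4.80 of the Wt and 31.5% ± 3.12 of the E1C5Δ/Δ cells, and their own Hoxd13 level went from 88.0 ± 9.81 to 57.1 ± 4.85, so the range was not filled alike in the groups.

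Other decreases were present in both ranges. Osr2, an odd-skipped transcription factor gene, had a mean of 32.0 ± 3.47 in Wt and 11.7 ± 4.22 in E1C5Δ/Δ among Hoxd13-positive cells and 49.6 ± 4.13 against 14.3 ± 4.11 among the rest. Tfap2b was higher in the Hoxd13-positive cells than in the rest in every library of both groups, at 32.2 ± 2.42 in Wt and 5.72 ± 1.47 in E1C5Δ/Δ, against 1.76 ± 0.703 and 0.684 ± 0.322 elsewhere. Pmaip1, a pro-apoptotic p53 target, went from 42.5 ± 3.77 to 12.6 ± 2.91 in Hoxd13-positive cells and from 16.6 ± 1.30 to 9.63 ± 2.02 in the others.

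**Figure D3:**
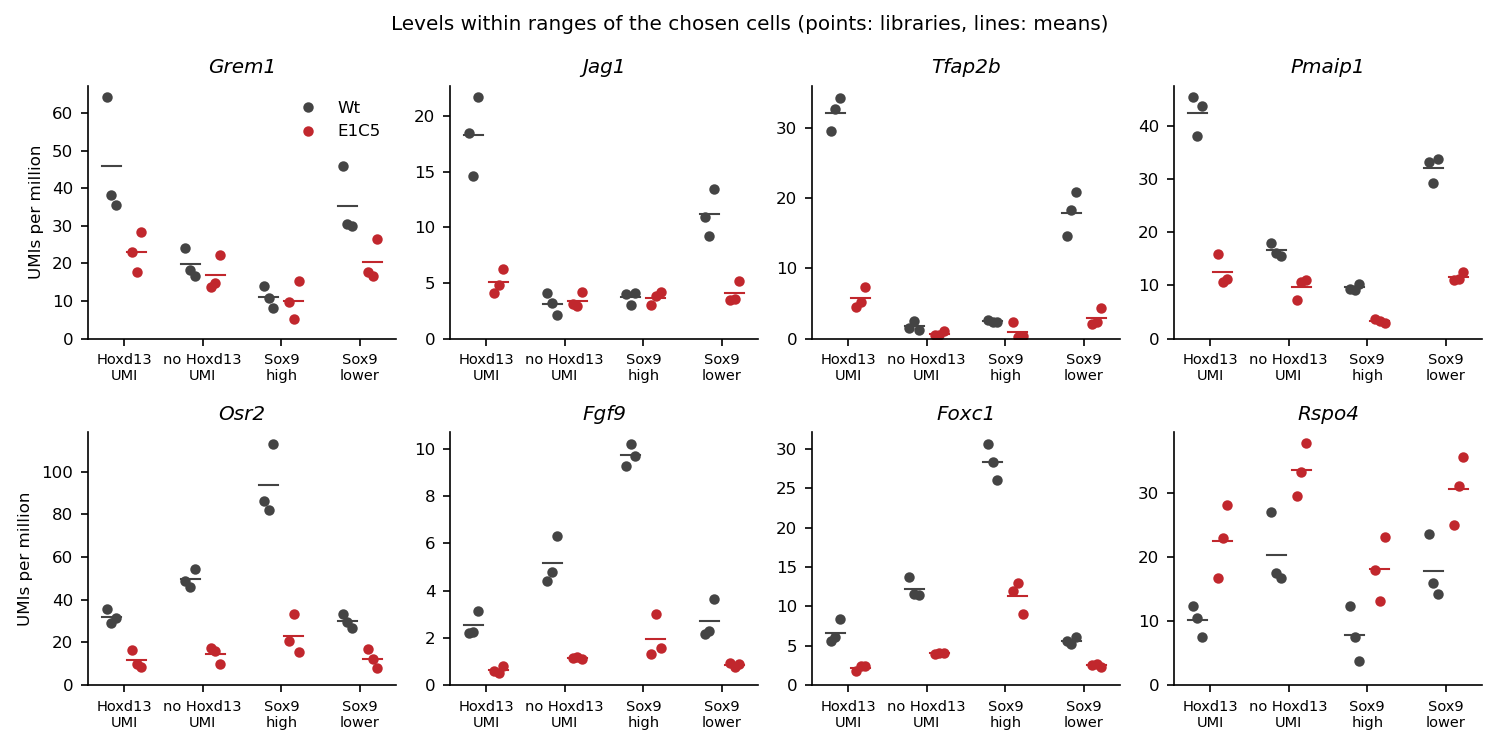
Levels of 8 genes (CPM, vertical, from 0) within ranges of the chosen cells, split by a Hoxd13 UMI or by Sox9 at 5 UMIs per 10000, for each Wt (dark) and E1C5Δ/Δ (red) library (points) with the mean (line). Grem1 and Jag1 overlap between the groups in cells without a Hoxd13 UMI and in cells of high Sox9, whereas Osr2, Fgf9 and Foxc1 are lower in every range.

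The genes of the peripheral progenitors, which the study places under the ectoderm, mostly had positive differences, and none passed. Of 8 tested, 7 differences were positive, as were 8102 of all 15924 genes tested, and the median was 0.19. For 1 of the 8, all E1C5Δ/Δ libraries were above Wt (12.5%, against 8.05% of all genes tested). This list was also picked by the study on these samples. Rspo4, which encodes an R-spondin that enhances WNT signalling, had 21.9, 15.6 and 12.7 CPM in Wt and 27.9, 33.3 and 34.4 in E1C5Δ/Δ. It was the only one whose groups did not overlap (0.92 ± 0.18, edgeR, adjusted p = 0.0768, called in 5 of 19 alternatives), and it was higher in every range of cells described above. Msx1, a homeobox gene of undifferentiated progenitors, had 143, 116 and 113 in Wt against 136, 178 and 162, which overlapped (0.36 ± 0.13, edgeR, adjusted p = 0.361). Lhx2 (0.35, adjusted p = 0.517), Asb4 (0.20, adjusted p = 0.704) and Lhx9 (0.17, adjusted p = 0.734) overlapped as well.

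The share of cells with a distal gene that also had a peripheral gene was compared for 12 pairs. Of Tfap2b-positive cells, 69.8%, 60.8% and 52.9% also had an Msx1 UMI in Wt, against 85.4%, 87.1% and 87.0% in E1C5Δ/Δ. Of Hoxa13-positive cells the shares were 72.4%, 62.0% and 63.6% against 90.2%, 79.2% and 83.9%. For Hoxd13 they were 46.5%, 43.6% and 46.3% against 47.3%, 60.8% and 54.1%. These 3 of 12 pairs did not overlap (exact p = 0.1 each, adjusted over the 12 pairs p = 0.4). In cells thinned to 5000 UMIs, the Tfap2b pair still did not overlap (50.4% ± 3.11 against 72.4% ± 3.89), while those of Hoxd13 (36.9% ± 2.05 against 41.8% ± 3.75) and Hoxa13 (61.7% ± 16.1 against 71.9% ± 6.95) did. The positive cells are few, with 31 to 169 Tfap2b-positive cells per E1C5Δ/Δ library and 34 in Wt replicate 3. Msx1 itself was detected in 43.3% ± 3.96 of E1C5Δ/Δ against 35.3% ± 1.88 of Wt cells (18.8% and 7.69% of the myeloid cells), and its part in these shares was not tested. Jag1 with Msx1 stood at 52.6% ± 4.78 in E1C5Δ/Δ against 52.5% ± 9.65 in Wt, while with all UMIs of a cell it did not overlap (75.1% ± 0.538 against 69.7% ± 1.52, exact p = 0.1). With all UMIs, 7 of the 12 pairs did not overlap, the 4 with Msx1 and those of Lhx2 with Hoxd13 (80.5% ± 5.73 in E1C5Δ/Δ against 69.1% ± 2.24 in Wt), Hoxa13 (96.0% ± 2.89 against 90.4% ± 1.35) and Tfap2b (95.8% ± 4.78 against 84.8% ± 2.88), each with exact p = 0.1 and adjusted over the 12 pairs p = 0.171. Tfap2b with Lhx2 also did not overlap at 5000 UMIs (61.0% ± 2.72 against 42.5% ± 6.96, exact p = 0.1). Lhx2 itself had a UMI in 67.1%, 73.4% and 79.6% of all E1C5Δ/Δ cells and in 63.6%, 62.6% and 63.3% of all Wt cells, and its part in these shares was not tested.

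**Figure D4:**
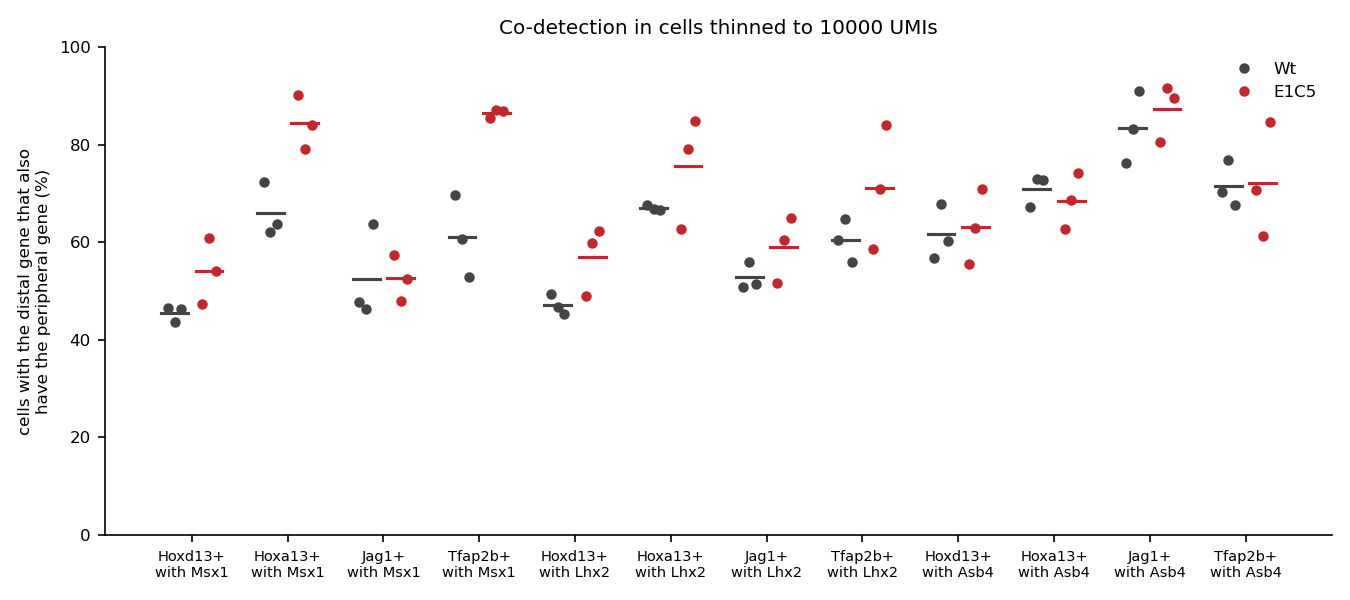
Share of cells with a distal gene (Hoxd13, Hoxa13, Jag1 or Tfap2b) that also have a UMI of a peripheral gene (Msx1, Lhx2 or Asb4), in percent, in cells thinned to 10000 UMIs, for each Wt (dark) and E1C5Δ/Δ (red) library (points) with the mean (line). With Msx1, the Tfap2b pair moves from 61.2% ± 8.42 to 86.5% ± 0.968 and the Jag1 pair from 52.5% ± 9.65 to 52.6% ± 4.78, with overlap at this depth.

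Along the BMP pathway no listed gene was called. The ligand list is not of BMP ligands alone, since it includes Bmp1, Gdf11, Inhba and Inhbb. Of its 10 genes tested, 5 had all E1C5Δ/Δ libraries below Wt (50%, against 9.07% of all genes tested) and the median was -0.49. Bmp2 had 4.97, 3.44 and 8.28 CPM in Wt and 2.82, 1.99 and 3.13 in E1C5Δ/Δ (-1.03 ± 0.30, edgeR, adjusted p = 0.225). Bmp4 had 84.2, 80.6 and 96.5 against 71.6, 71.7 and 68.5 (-0.30 ± 0.099, adjusted p = 0.286). The groups did not overlap for either ligand.

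Of 12 antagonists other than Grem1, 11 had negative differences and 5 had all E1C5Δ/Δ libraries below Wt (41.7%, against the same 9.07%), with a median of -0.42, for example Smoc2 (-1.38, edgeR, adjusted p = 0.214). The 10 receptors and SMADs had a median of -0.11, with 1 below Wt in all libraries and 1 above (10% each, against 9.07% and 8.05% of all genes tested). The 15 target and feedback genes had a median of -0.02, with 7 positive and 8 negative. All E1C5Δ/Δ libraries were below Wt for 2 of them (13.3%, against 9.07% of all genes tested) and above for 1 (6.67%, against 8.05%). The differences reached from -1.11 to 0.36. Id1 had 318, 329 and 276 in Wt and 304, 393 and 269 in E1C5Δ/Δ. Id3 had 234, 234 and 229 against 248, 288 and 215, Msx2 26.2, 33.1 and 38.1 against 29.9, 40.6 and 29.0, and Bambi, a BMP pseudoreceptor, 41.8, 40.4 and 42.1 against 42.9, 47.5 and 45.0. Of these 4, Bambi alone separated the groups, by 0.12 ± 0.090 (edgeR, adjusted p = 0.682).

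Among the FGF ligands, Fgf9 and Fgf18 fell. Fgf9, which encodes a secreted ligand, had 3.64, 3.97 and 4.93 CPM in Wt and 1.06, 1.06 and 0.997 in E1C5Δ/Δ, and fell by 2.00 ± 0.18 (edgeR, adjusted p = 0.00224). Fgf18, a ligand that acts on chondrogenic cells, had 4.50, 4.85 and 5.43 against 1.93, 2.71 and 2.33, and fell by 1.08 ± 0.17 (adjusted p = 0.0392). Of 9 FGF ligands and receptors tested, these 2 fell, against 0.402% of all genes tested, and none rose. All E1C5Δ/Δ libraries were below Wt for 6 of the 9 (66.7%, against 9.07% of all genes tested). None of the 13 FGF response genes passed, 1 was below Wt in all libraries (7.69%, against 9.07% of all genes tested), and their median was -0.09. Dusp6, a feedback phosphatase of ERK signalling, had 81.6, 65.7 and 56.2 in Wt and 44.3, 52.4 and 76.6 in E1C5Δ/Δ, which overlapped.

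In the Hedgehog pathway, 1 of 14 genes fell and none rose, against 0.402% of all genes tested that fell. All E1C5Δ/Δ libraries were below Wt for 4 of the 14 (28.6%, against 9.07% of all genes tested) and above for 1 (7.14%, against 8.05%), with a median of 0.00. The gene that fell was Hhip, which encodes a membrane-bound inhibitor of Hedgehog ligands and is itself a target. Hhip had 4.32, 4.09 and 4.01 CPM in Wt and 1.83, 1.43 and 2.27 in E1C5Δ/Δ (-1.15 ± 0.19, edgeR, adjusted p = 0.0399). Shh had 9.08, 5.89 and 9.47 against 2.69, 3.63 and 5.85, with E1C5Δ/Δ replicate 3 just below the lowest Wt value (-0.99 ± 0.29, adjusted p = 0.218). The targets Ptch1 (-0.17, adjusted p = 0.779) and Gli1 (-0.26, adjusted p = 0.637) overlapped. In the Notch pathway, the ligand Jag1 and the receptor Notch1 fell of 11 genes tested, against the same 0.402% of all genes. All 11 differences were negative, the median was -0.64, and 6 had all E1C5Δ/Δ libraries below Wt (54.5%, against 9.07%). Notch1 had 12.1, 12.3 and 13.8 in Wt and 5.85, 8.35 and 6.92 in E1C5Δ/Δ (-0.86 ± 0.15, edgeR, adjusted p = 0.0446).

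In the HoxD cluster with its neighbour Evx2, Hoxd13 and Evx2 fell of 10 genes tested, against 0.402% of all genes tested, while 7 differences were positive. All E1C5Δ/Δ libraries were below Wt for 3 of the 10 (30%, against 9.07% of all genes tested) and above for 2 (20%, against 8.05%). Evx2, an even-skipped homeobox gene beside Hoxd13, had 0.412, 0.505 and 0.828 CPM in Wt and 0.0916, 0.0352 and 0.0878 in E1C5Δ/Δ (-2.79 ± 0.40, edgeR, adjusted p = 0.0296). Its paralog Evx1, beside Hoxa13, also fell, from 2.01, 2.12 and 4.04 to 0.683, 0.969 and 0.629 (-1.83 ± 0.31, adjusted p = 0.0449). It was outside the gene lists and is named because it fell with Evx2. In the HoxA cluster no gene was called. In the HoxB and HoxC clusters 1 of 14 rose, against 0.1% of all genes tested. These 14 had 12 positive differences, 4 genes above Wt in all libraries (28.6%, against 8.05%) and a median of 0.31. Hoxb7 had 5.76, 7.27 and 4.47 in Wt and 11.7, 11.7 and 12 in E1C5Δ/Δ (1.00 ± 0.17, edgeR, adjusted p = 0.0399). Hoxb8 (0.87, adjusted p = 0.165) and Hoxb9 (0.99, adjusted p = 0.229) were higher in all E1C5Δ/Δ libraries without passing.

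**Figure D5:**
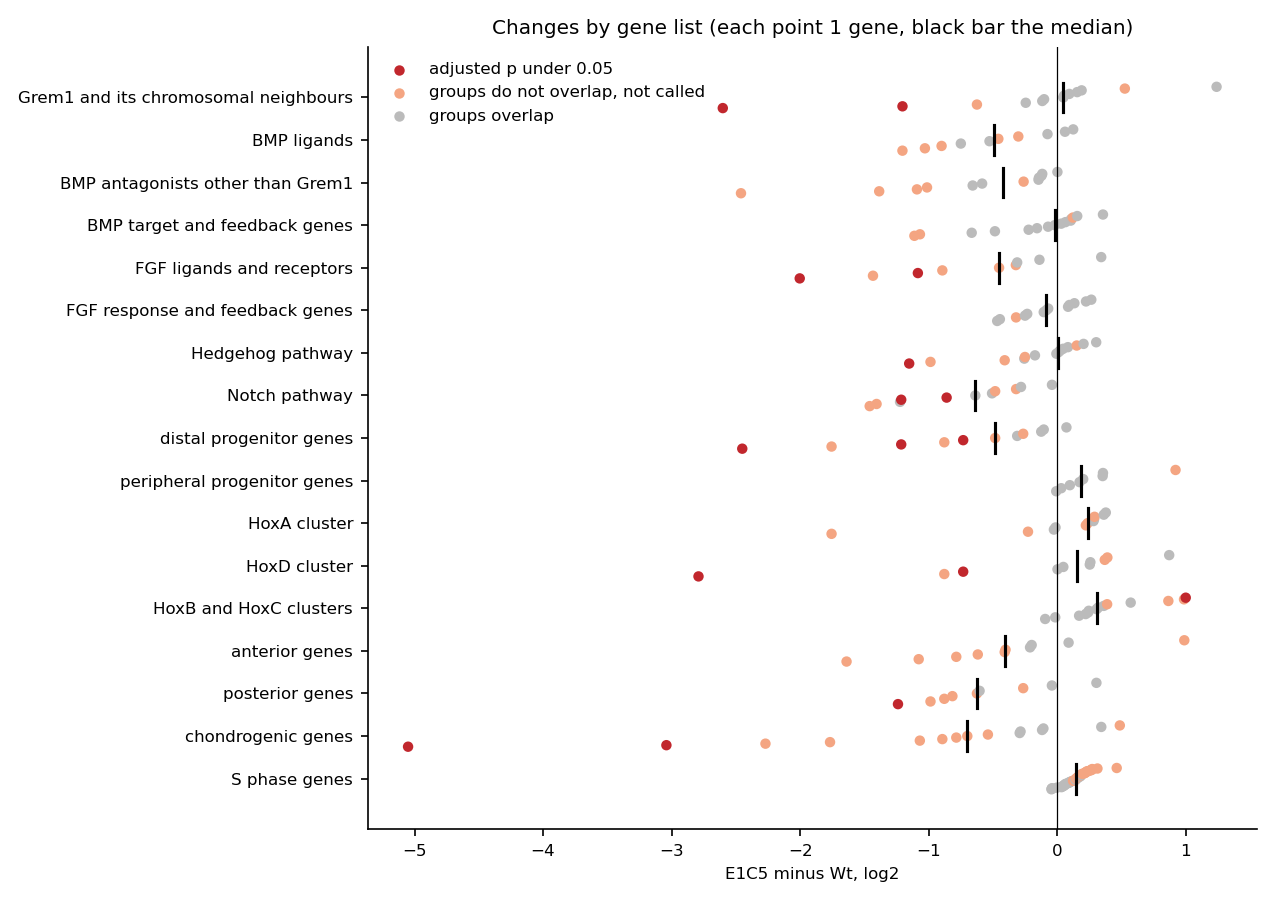
Difference of E1C5Δ/Δ from Wt (log2, horizontal) for the tested genes of 17 lists (points), with called genes in red, uncalled genes whose groups do not overlap in light orange and the median of each list as a black bar. The medians of the distal progenitor (-0.48), Notch (-0.64) and chondrogenic (-0.70) lists lie left of 0, and those of the BMP targets (-0.02) and the Hedgehog pathway (0.00) lie at 0.

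The cartilage genes Cnmd and Matn4 fell in E1C5Δ/Δ. Of 15 chondrogenic genes tested, these 2 fell, against 0.402% of all genes tested, and none rose. All E1C5Δ/Δ libraries were below Wt for 9 of the 15 (60.0%, against 9.07% of all genes tested), and the median was -0.70. Cnmd, the cartilage glycoprotein chondromodulin, had 0.365, 0.429 and 2.05 CPM in Wt and 0.0250, 0.0352 and 0.0211 in E1C5Δ/Δ (-5.05 ± 0.83, edgeR, adjusted p = 0.0399). Matn4, a matrilin of cartilage matrix, had 0.359, 0.501 and 0.894 against 0.108, 0.0352 and 0.0492 (-3.04 ± 0.48, adjusted p = 0.0392). Both were near the limit of detection.

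The abundant genes of the list came close to the threshold or missed it. Col2a1, the main collagen of cartilage, had 49.9, 73.2 and 89.8 in Wt and 30.6, 34.4 and 36.4 in E1C5Δ/Δ (-1.07 ± 0.19, edgeR, adjusted p = 0.0513). Sox9, the master regulator of chondrogenesis, had 282, 274 and 263 against 154, 173 and 236 (-0.54 ± 0.15, adjusted p = 0.205). Cells with Sox9 at 5 or more UMIs per 10000 made up 19.4% to 22.0% of the chosen Wt cells and 6.20%, 9.72% and 17.1% of the E1C5Δ/Δ cells. This range is a cut through a continuous level and not a cell type. Thinned to 10000 UMIs, Sox9-positive cells carried 4.49 ± 0.233 Sox9 UMIs in Wt and 3.32 ± 0.521 in E1C5Δ/Δ (exact p = 0.1). Their share overlapped at this depth (63.3% ± 1.31 against 55.5% ± 8.28, exact p = 0.4). At 5000 UMIs the shares did not overlap (51.7% ± 0.658 against 41.6% ± 7.22, exact p = 0.1). Sox9 was also detected in 12.5% of Wt and 20% of E1C5Δ/Δ myeloid cells thinned to 10000 UMIs.

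Within the cells of high Sox9, Osr2, Fgf9, Foxc1 and Col2a1 did not overlap between the groups, given without a test. Their own Sox9 level went from 836 ± 35 CPM in Wt to 709 ± 40.7 in E1C5Δ/Δ, so this range was not filled alike either. Osr2 had a mean of 93.7 ± 16.8 CPM there in Wt and 23.0 ± 9.26 in E1C5Δ/Δ, Fgf9 9.72 ± 0.471 and 1.96 ± 0.899, and Foxc1 28.3 ± 2.31 and 11.3 ± 2.05. Col2a1 had 185 ± 48.8 and 108 ± 6.95. Grem1, low in these cells, overlapped at 11 ± 2.88 and 10.1 ± 5.13. Over all chosen cells Osr2 had 44.6, 41.7 and 44.6 in Wt and 19.2, 15.6 and 9.37 in E1C5Δ/Δ, and fell by 1.57 ± 0.22 (edgeR, adjusted p = 0.0275). Foxc1, a forkhead factor of skeletogenic mesenchyme, had 10.80, 9.97 and 10.2 against 3.53, 3.95 and 3.43, and fell by 1.51 ± 0.12 (adjusted p = 0.00139). Enpp2, which encodes autotaxin, had 11.7, 12.1 and 13.0 against 3.80, 4.05 and 3.70, and fell by 1.67 ± 0.12 (adjusted p = 0.000921). For Foxc1 and Enpp2 the spread within each group was small beside the distance between the groups.

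Tbx4 was the only called gene of the anterior and posterior lists. Of 9 posterior genes tested 1 fell, against 0.402% of all genes tested, and of 10 anterior genes none did. The gene that fell, Tbx4, is not among those that the study used to score posterior position. The medians were -0.62 and -0.40, and 6 of each list had all E1C5Δ/Δ libraries below Wt (66.7% and 60%, against 9.07% of all genes tested). Tbx4, a T-box gene better known from the hindlimb, had 4.74, 4.94 and 5.70 CPM in Wt and 1.85, 1.87 and 2.72 in E1C5Δ/Δ (-1.24 ± 0.19, edgeR, adjusted p = 0.0387). Among the anterior genes, Pax1 had 11.9, 17.8 and 42.0 against 9.86, 8.90 and 4.14 (-1.64, adjusted p = 0.199), with Wt replicate 3 far above the others, and Alx4 had 24.6, 26.2 and 25.5 against 16.6, 21.6 and 19.7 (-0.40, adjusted p = 0.216). The posterior factor Osr1 had 22.5, 27.0 and 36.7 against 20.9, 14.8 and 13.0 (-0.81, adjusted p = 0.170). Of 12 proximal genes tested, only Creb5, a factor of proximal chondrogenic progenitors, fell (-1.18 ± 0.19, edgeR, adjusted p = 0.0392), against 0.402% of all genes tested. Of the 12, 2 were above Wt in all libraries and 2 below (16.7% each, against 8.05% and 9.07%), with a list median of 0.16.

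Pmaip1, H2-D1, Cxcl14 and Sorbs2 were among the largest decreases at 5 CPM or more. Pmaip1 had 29.2, 27.7 and 30.4 CPM in Wt and 12, 11.9 and 11.3 in E1C5Δ/Δ (-1.31 ± 0.097, edgeR, adjusted p = 0.000993). It was the only one of 16 p53 targets called, against 0.402% of all genes tested that fell. Of the 16, 4 had all E1C5Δ/Δ libraries below Wt (25%, against 9.07% of all genes tested), and the list's median was -0.05. H2-D1, a class I histocompatibility gene with near-identical copies whose reads may be split, had 8.54, 11.3 and 18.1 against 3.08, 2.61 and 1.67 (-2.37 ± 0.31, adjusted p = 0.0205). The chemokine gene Cxcl14 fell by 1.51 ± 0.23 (adjusted p = 0.0387) and Sorbs2, an adaptor of the cytoskeleton, by 1.09 ± 0.17 (adjusted p = 0.0392). Mab21l2, an abundant gene picked after its values were seen, had 223, 204 and 243 against 110, 127 and 91.4 (-1.03 ± 0.13, adjusted p = 0.0205).

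Mnx1 and Mmrn2 are outside the naming rule and were picked after their values were seen. Mnx1, a homeobox gene known from motor neurons, had 0.511, 0.474 and 0.927 CPM in Wt and 0.00832, 0.0352 and 0.0281 in E1C5Δ/Δ (-4.63 ± 0.49, edgeR, adjusted p = 0.00576). Mmrn2, an endothelial matrix gene, had 4.28, 4.43 and 6.56 against 0.766, 0.652 and 0.716 (-2.81 ± 0.22, adjusted p = 0.00107). None of 9 endothelial markers tested was called, and their sum was 16.3 to 18.5 CPM in Wt and 17.2 to 18.6 in E1C5Δ/Δ.

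Metrn, Pop4 and Zfp61 rose. Metrn, a secreted factor of glia and neurons, had 71.6, 73.0 and 68.2 CPM in Wt and 107, 105 and 107 in E1C5Δ/Δ (0.58 ± 0.087, edgeR, adjusted p = 0.0327). Pop4, a subunit of RNase P and RNase MRP, had 57.2, 63.3 and 59.2 against 92.1, 94.8 and 82.9 (0.59 ± 0.097, adjusted p = 0.0399), and the zinc finger gene Zfp61 8.89, 8.0 and 9.50 against 14.4, 13.4 and 14.9 (0.70 ± 0.11, adjusted p = 0.0392). A cluster of 6 of the 16 higher genes lay on chromosome 14 between 3208488 and 7951588, where 22 genes were tested. They belong to a family of near-identical copies, so their counts are uncertain. Gm3636 had 0.0266, 0.0224 and 0.0331 in Wt and 1.6, 1.43 and 2.01 in E1C5Δ/Δ, and Gm3468 was at 0 UMIs in all 3 Wt libraries and at 0.791, 0.599 and 1.00 in E1C5Δ/Δ. In E1C8Δ/Δ the same Gm3636 stood at 0.0689, 1.6 and 1.68, with replicate 1 near Wt.

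No list of cell cycle, stress or quality genes held a called gene. Of 41 S phase genes, 18 had all E1C5Δ/Δ libraries above Wt (43.9%, against 8.05% of all genes tested) and none below, with a median of 0.15. The 52 G2 and M phase genes had a median of 0.07. Of these, 4 were above Wt in all libraries and 3 below (7.69% and 5.77%, against 8.05% and 9.07% of all genes tested). The 24 hypoxia and glycolysis genes had a median of 0.27, with 4 above Wt in all libraries (16.7%, against 8.05%) and none below. Of 25 immediate early and stress genes, 6 were below Wt in all libraries (24%, against 9.07% of all genes tested), among them Egr1 (-1.58, edgeR, adjusted p = 0.120). The 12 mesenchyme markers had a median of -0.22 with 7 below in all libraries (58.3%, against the same 9.07%), for example the tendon progenitor factor Scx (-0.94, adjusted p = 0.0972), and Twist1 above (0.30, adjusted p = 0.358).

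The summed epithelial markers did not overlap between the groups. The 12 epithelial markers summed to 12 to 12.6 CPM in Wt and 6.90 to 9.43 in E1C5Δ/Δ, with Epcam at 0 by the rule and Fgf8, the ridge ligand, at 0.941 against 0.357 (-1.43, edgeR, adjusted p = 0.189). The part of this trace in the decreases of FGF ligands was not tested. All 11 erythroid markers tested had negative differences, with a median of -0.87, none called and none without overlap, and their part in other decreases was not tested. The sums overlapped for erythroid, endothelial, muscle progenitor (3.60 to 5.18 against 2.81 to 3.66), myeloid (4.06 to 26.4 against 8.95 to 29.8) and neural crest markers (53.4 to 59.7 against 49.8 to 66.4). Lbx1, Cdh5 and Tyrobp were at 0 by the rule.

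E1C5Δ/Δ was set beside E1C8Δ/Δ in 1 fit of all 9 libraries, where the difference between the alleles was tested directly. Both alleles are compared with the same Wt libraries. Between them 1569 of 16247 genes differed (9.66%), 892 higher (5.49%) and 677 lower (4.17%) in E1C5Δ/Δ, with fewer UMIs per cell in E1C8Δ/Δ (22651 ± 4883) than in E1C5Δ/Δ. Leaving out 1 of these 6 libraries gave 161 to 635 higher and 176 to 443 lower genes. The lower count moved by over 1.5 times in every omission, and the higher count without E1C5Δ/Δ replicate 2 (438), E1C8Δ/Δ replicate 1 (332), 2 (161) or 3 (309). Grem1 RNA was lower in E1C8Δ/Δ, at 9.44, 11.7 and 14.2 CPM, than in E1C5Δ/Δ (E1C5Δ/Δ minus E1C8Δ/Δ 0.82 ± 0.19, edgeR, adjusted p = 0.0260). The BMP targets Id3 (-0.62 ± 0.11, adjusted p = 0.0104), Bambi (-0.56 ± 0.085, adjusted p = 0.00517), Msx2 (-0.84 ± 0.16, adjusted p = 0.0116) and Id2 (-0.48 ± 0.13, adjusted p = 0.0420) were lower in E1C5Δ/Δ than in E1C8Δ/Δ. Id1 was not called (-0.29 ± 0.18, adjusted p = 0.340).

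For the distal genes Tfap2b, Hoxd13, Jag1 and Hoxa13 no difference between the alleles passed the test. Tfap2b had 3.31, 3.61 and 3.29 CPM in E1C8Δ/Δ (E1C5Δ/Δ minus E1C8Δ/Δ -0.23 ± 0.20, edgeR, adjusted p = 0.509), Hoxd13 28.4, 19.2 and 19 (0.15 ± 0.15, adjusted p = 0.577) and Jag1 8.13, 5.31 and 4.79 (-0.40 ± 0.20, adjusted p = 0.233), and Hoxa13 8.68, 5.39 and 6.15 (-1.12 ± 0.32, adjusted p = 0.0516). Osr2 had 6.47, 12.8 and 10.2 (0.54 ± 0.25, adjusted p = 0.189). Scg5 (-0.21 ± 0.42, adjusted p = 0.801) and Fmn1 (0.34 ± 0.21, adjusted p = 0.329) did not pass either. By contrast, Fgf9 at 1.86, 3.06 and 2.60 (-1.31 ± 0.19, adjusted p = 0.00485), Foxc1 at 5.51, 8.42 and 7.82 (-1.02 ± 0.14, adjusted p = 0.00400) and Creb5 at 14.6, 14.5 and 14.9 (-1.43 ± 0.16, adjusted p = 0.00212) were lower in E1C5Δ/Δ.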

How the data were processed

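Dissociated forelimb buds were captured with 10x Genomics 3′ chemistry. The authors aligned reads with Cell Ranger 6.0.1 (mm10, per the submitters' processing notes) and deposited raw UMI counts per gene and barcode. The members and gene lists were chosen with earlier results of these data known. Cells were selected by the limits in the text, no doublet caller was run, and UMIs were summed per library. Genes were placed with GENCODE M21, and 15924 autosomal genes passing filterByExpr were tested with edgeR 4.0.16 (TMM, quasi-likelihood, R 4.3.3), DESeq2 1.42.0 and limma 3.58.1 serving as alternatives. Levels are TMM-scaled CPM over genes tested, or over all genes for markers and ranges of cells. Calls needed an adjusted p under 0.05. Named genes were the listed genes and, per direction, up to 10 called autosomal genes of largest change averaging at least 5 CPM with non-overlapping groups. All exact tests are two-sided. The method was tested on simulated data: with 200 genes changed by 1 log2 unit, 68.0% were recovered (96.6% from 5 CPM) with 14 false calls. The false share of the simulated calls was thus above the nominal 0.05. Each library is the forelimb pair given as a biological replicate, so p-values measure the spread between these samples. Alternatives covered normalization, tool, filters, cell limits, embryo sex, a replicate block and each library left out.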

Additional observations from a re-analysis of the deposited data

Results flagged for a closer look

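The alleles differed in 1569 genes, those past adjusted p under 0.05 (edgeR) between E1C5Δ/Δ and E1C8Δ/Δ in the 9 libraries, 892 higher and 677 lower in E1C5Δ/Δ. Without 1 of the 6 libraries of these alleles, 161 to 635 were higher and 176 to 443 lower, with both lowest without E1C8Δ/Δ replicate 2. Each value here is E1C5Δ/Δ minus E1C8Δ/Δ on the log2 scale, and each gene passed that test. Among the genes that fell in E1C5Δ/Δ, the difference was -0.45 for Enpp2, -0.59 for Pmaip1, -1.02 for Foxc1, -1.31 for Fgf9, -2.64 for H2-D1, -0.99 for Cxcl14, -0.99 for Tbx4, -1.43 for Creb5, -2.04 for Matn4 and -3.42 for Cnmd. Among the named genes that rose, Metrn differed by 0.50 and Pop4 by 0.36. Among genes that did not pass against Wt, Grem1 differed by 0.82, Col2a1 by -0.72, Osr1 by -0.87, Pax1 by -1.70, Pax9 by -1.20, Scx by -0.65, Fgf8 by -2.33 and Hoxb9 by 1.08. The BMP target genes differed by -0.56 for Bambi, -0.62 for Id3, -0.84 for Msx2 and -0.48 for Id2.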

How the results depend on the processing

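The counts of genes moved with the settings. Against 16 higher and 64 lower genes in E1C5Δ/Δ, DESeq2 gave 118 and 298, limma voom with sample weights 61 and 166, no filter on low counts 63 and 195, and all 9 libraries in 1 fit 49 and 146. Fewer were called with embryo sex as a covariate (2 and 11), in male libraries only (6 and 8), with Prrx1 of at least 1 UMI (7 and 28) and in cells thinned to 10000 UMIs (5 and 30). The fit of male libraries holds E1C5Δ/Δ replicate 2 only. It has no spread between E1C5Δ/Δ libraries, so its count cannot be compared with the others and no conclusion is drawn from it. Leaving out 1 library gave 4 to 26 higher and 13 to 100 lower genes, most without Wt replicate 1. The replicate block gave 4 and 15, and 436 and 314 for E1C5Δ/Δ against E1C8Δ/Δ, where leaving out 1 library gave 161 to 635 and 176 to 443, both lowest without E1C8Δ/Δ replicate 2. To look for pairing, each gene's group mean was subtracted from its log2 level, and the deviations left in each library were correlated. Deviations of same-numbered Wt and E1C5Δ/Δ libraries correlated at -0.23, 0.05 and -0.22, and those of the other pairs at -0.28 to 0.40. Deviations cancel within a group, so correlations of both signs are built in. With 3 libraries a group, these values cannot tell whether same-numbered libraries share a batch. For the 80 called genes, 864 of 1506 values kept the call, 642 lost it and 0 changed sign. All 80 were picked with groups that did not overlap, so a change of sign was hardly possible and the 0 is no test of direction. Genes near 0 did change sign: without 1 library, Id1 ran from -0.10 to 0.17, Id2 from -0.12 to 0.11, Id3 from -0.0016 to 0.20 and Msx2 from -0.14 to 0.15, and without the top 10% of cells by UMIs Id2 was 0.012. With all UMIs of a cell, the Grem1 share differed by 2.33 percentage points. At 5000 UMIs, co-detection differed by 3.69 points for Hoxa13 with Asb4, -3.06 for Jag1 with Msx1 and -15.0 for Tfap2b with Asb4. Without 1 library it ran from -2.49 to 5.27 for Hoxd13 with Asb4, -5.23 to 0.46 for Hoxa13 with Asb4, -3.02 to 5.67 for Jag1 with Msx1 and -5.58 to 6.09 for Tfap2b with Asb4, and 3 to 7 of 12 pairs did not overlap. The causes were not tested. With 3 libraries a group, exact tests cannot go below p = 0.1.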
